A study of Mus musculus with 12 samples.

Results

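NR4A3 knockout cells at day 1 were compared with wild type cells at day 14, the pair of groups in the study whose transcriptomes lay closest to each other. The groups were 2 of 4 and held 6 of the 12 libraries, 3 in each group. All libraries are described as primary vascular smooth muscle cells (VSMC) of mouse aorta. RNA was sequenced from cultured cells after TRIzol extraction and NEBNext Ultra library preparation. The group called KO day 1 below carries the genotype label NR4A3KO and the treatment label β-GP, and the group called WT day 14 the genotype label WT and the treatment label none. The culture protocols give the same medium for all groups, DMEM/F12 with 10% serum and 10 mM β-glycerophosphate, a phosphate donor used to drive mineral deposition. The labels give no strain, age or sex of mice and not how the knockout was made. They also do not say whether the 3 libraries of a group came from separate mice or cultures. P-values therefore reflect how libraries scatter, which could be technical alone. In the main fit this scatter was estimated from all 12 libraries, including the groups outside this pair. Genotype, day, treatment label and the deposited table (1 for each day) all differ between both groups, and their parts in any difference cannot be told apart. Totals were 13848199 to 20091307 counts per library in these 6. One library, WT day 14 replicate 1, lay nearer to the KO day 1 libraries than to the rest of its own group, and results are given with and without it where they rest on it.

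NR4A3 belongs with NR4A1 and NR4A2 to a family of orphan nuclear receptors that act as transcription factors without a known natural ligand. Their genes are immediate early genes, switched on within the first wave of transcription after growth factors, inflammatory signals or cyclic AMP. In the vessel wall they are known for roles in smooth muscle growth and inflammation, and cultured VSMC in high phosphate lose contractile genes and take up features of bone-forming cells. Interferon beta, the product of Ifnb1, signals through its receptor to a large group of antiviral genes, while NF-κB drives chemokines, cytokines and acute phase proteins.

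The targeted gene was the largest difference among abundant genes. Nr4a3 was at 1.89, 2.0 and 2.34 CPM (read counts relative to the scaled library total) in replicates 1 to 3 of KO day 1 and at 238, 256 and 217 CPM in WT day 14, a log2 fold change of -6.82 ± 0.21 (SE) with an edgeR adjusted p of 4.84e-11. All 3 KO libraries lay far below all 3 WT libraries. The means in the groups outside this pair were 4.25 CPM for WT day 1 and 49.6 CPM for KO day 14, so Nr4a3 reads were low at day 1 in both genotypes and were present in the knockout at day 14. The sources used here do not give which exons the knockout removed, so the counts do not test the genotype label. The 250 bases before the Nr4a3 start site are shown because the cAMP response element drives many immediate early genes. The full element TGACGTCA was not among them, and the half-site TGACG, in capitals on either strand, occurred 4 times, at -231, -213, -205 and -147 from the start site. This half-site was searched after the values were seen, and 26.5% of all 10792 windows of tested genes hold it. The sequence is from RefSeq (GRCm38.p6), chr4:48045055-48045304, plus strand:
Nr4a3: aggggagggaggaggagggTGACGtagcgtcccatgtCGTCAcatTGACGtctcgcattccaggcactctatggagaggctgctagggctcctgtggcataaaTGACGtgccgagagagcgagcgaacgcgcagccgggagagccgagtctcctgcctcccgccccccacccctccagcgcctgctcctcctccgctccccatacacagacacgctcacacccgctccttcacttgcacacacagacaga

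The other members of the family differed less. Nr4a2 was lower in KO day 1, at 13.2, 14.2 and 12 CPM against 16.5, 21.3 and 25 CPM, a log2 fold change of -0.68 ± 0.15 with an edgeR adjusted p of 0.0151. Nr4a1 was at 20.3, 21.5 and 18.1 CPM in KO day 1 and 22.5, 33.6 and 41.6 CPM in WT day 14, and its log2 fold change of -0.71 ± 0.21 missed the threshold (edgeR adjusted p = 0.0505). Groups did not overlap for either gene. The call for Nr4a2 was lost with the 6 libraries alone and when any single library other than KO day 1 replicate 2 or WT day 14 replicate 1 was left out.

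Over the 15973 genes tested, 1562 (9.78%) were called at an edgeR adjusted p below 0.05, with 621 higher in KO day 1 (3.89%) and 941 lower (5.89%). At least 2-fold differences were called for 56 higher genes (0.351%) and 287 lower genes (1.8%). The groups did not overlap in 3275 genes (20.5%), and 1119 genes (7.01%) were called, abundant (mean log2 CPM of at least 3) and without overlap. Between the other 5 pairs of the 4 groups, 50.7% to 54.8% of the same genes were called in the same fit. Chromosome by chromosome, the median log2 fold change between KO day 1 and WT day 14 lay between -0.03 (chromosome 7) and 0.09 (X), against -0.29 to 0.35 over the other 5 pairs. Chromosomes were assigned by gene name for 9759 of 10038 abundant genes (97.2%).

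**Figure D1:**
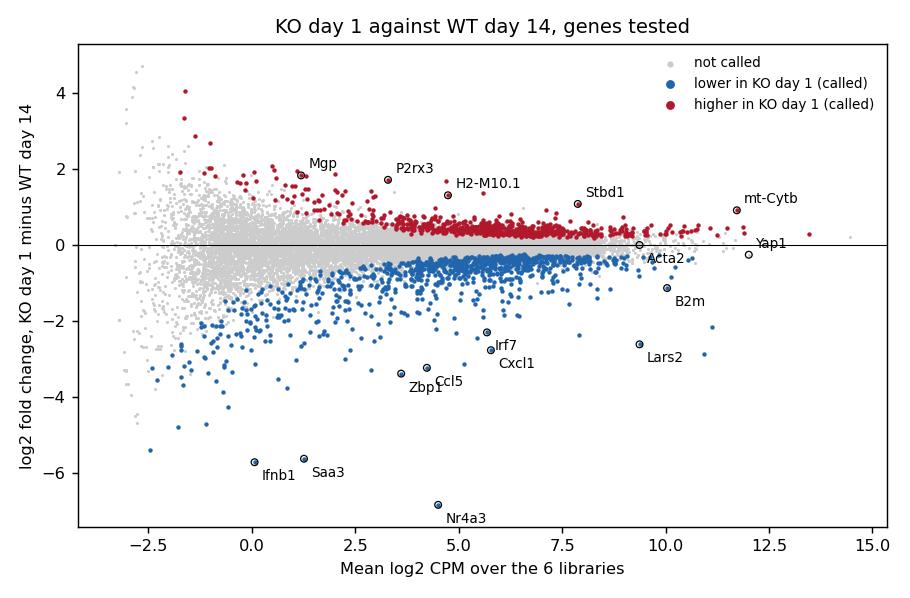
Log2 fold change of KO day 1 minus WT day 14 against mean log2 CPM for the 15973 genes tested, with called genes in red (higher in KO day 1, 621) and blue (lower, 941) and named genes ringed. The deepest differences are on the lower side, with Nr4a3 at -6.82 and Ifnb1 and Saa3 below -5.

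WT day 14 replicate 1 stood apart from its group. Over abundant genes its root mean square log2 difference was 0.427 and 0.443 to the other WT day 14 libraries, but 0.311, 0.287 and 0.387 to the 3 KO day 1 libraries. The other WT day 14 libraries differed from each other by 0.193, and KO day 1 libraries among themselves by 0.183 to 0.272. Nr4a3 in this replicate was at the level of its group. This library also held most WT day 14 counts of a few genes of other cell types. It had 20 of 25 counts of Pecam1 (endothelium), all 24 of Rgs5 (pericytes) and 216 of 221 of Myl2 (heart muscle). Other markers of endothelium and pericytes did not follow. In WT day 14 replicates 1 to 3, the endothelial Cdh5 and Kdr were at 4.45, 6.35 and 7.28 CPM and at 1, 1.47 and 0.792 CPM. The pericyte markers Abcc9 and Cspg4 were at 4.1, 12.35 and 11.19 CPM and at 8.15, 7.05 and 6.73 CPM. Without WT day 14 replicate 1, 5538 of 16434 genes tested were called (2810 higher, 2728 lower), of which 1553 were among the 1562. Counts of list members below are read against 3.89% higher and 5.89% lower with all libraries. Those without this replicate are read against the larger counts of that fit. The number was 1554 without KO day 1 replicate 2, but 719 and 576 without KO day 1 replicates 1 and 3, and 610 and 747 without WT day 14 replicates 2 and 3. With the spread taken from the 6 libraries alone, 205 of 15025 genes tested were called (19 higher, 186 lower), all 205 among the 1562. List counts from that fit are read against these few calls, so a list without a call there is not by itself a result about its members. The main groups of genes below are therefore given with the place of WT day 14 replicate 1. On this scale 0 is the mean log2 CPM of KO day 1 and 1 the mean of WT day 14 replicates 2 and 3. The median place of WT day 14 replicate 1 was 0.60 over the 1562 genes, and 0.84 over the 287 that were at least 2-fold lower. These genes were called in a fit that held this replicate, which favours genes where it lay with its own group. The places therefore do not describe genes outside the calls.

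Genes of the type I interferon response were lower in KO day 1 almost as a whole. Of 26 listed and tested, 24 were lower and none was higher, with a median log2 fold change of -1.30 where the median of all tested genes was -0.004. The other 2, Ifih1 and Ifit2, were at -0.51 and -0.22 and were not called. Groups did not overlap in 25 of the 26. WT day 14 replicate 1 sat with its own group here, at a median place of 1.20, and none of the 24 called genes lay nearer to the KO day 1 mean. The count was 24 without that replicate and 20 with the 6 libraries alone.

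Ifnb1, which encodes interferon beta, was lower too. This gene is outside the list and was chosen after its values were seen. It had 4, 2 and 0 counts in the KO day 1 libraries and 76, 120 and 113 in WT day 14, which is 0.222, 0.111 and 0 CPM against 3.8, 8.38 and 5.59 CPM, a log2 fold change of -5.70 ± 0.64 with an edgeR adjusted p of 7.71e-05. In the other groups its mean was 0.0236 CPM (WT day 1) and 0.0742 CPM (KO day 14), so WT day 14 had the highest mean of the 4 groups. Irf7, the transcription factor that amplifies interferon production, was at 23.5, 30.5 and 16.8 CPM in KO day 1 and 132, 108 and 105 CPM in WT day 14, a log2 fold change of -2.29 ± 0.19 with an edgeR adjusted p of 3.11e-06. Mx1, an antiviral GTPase, was at 2.28, 1.06 and 1.37 CPM against 10.5, 6.07 and 7.43 CPM, a log2 fold change of -2.36 ± 0.28 with an edgeR adjusted p of 0.000116. For all 3 genes every KO day 1 library was below every WT day 14 library.

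Zbp1, a sensor of Z-form nucleic acids that can start necroptosis, was at 3.5, 4.34 and 3.51 CPM against 50, 33.7 and 33.5 CPM, a log2 fold change of -3.37 ± 0.21 with an edgeR adjusted p of 2.69e-07. WT day 14 replicate 1 was the highest of the 6. The guanylate-binding proteins Gbp2 and Gbp3, GTPases that attack intracellular pathogens, differed by -1.79 ± 0.15 and -1.81 ± 0.20 on the log2 scale (edgeR adjusted p = 3.11e-06 and 5.51e-05). Gbp2 was at 6.55, 5.84 and 8.09 CPM against 26.1, 23.8 and 21.2 CPM. Iigp1, an immunity-related GTPase named after its values were seen, was at 2.94, 2.28 and 1.9 CPM against 31.7, 15.9 and 20.5 CPM, a log2 fold change of -3.27 ± 0.29 with an edgeR adjusted p of 5.99e-06. Phf11d, a PHD finger protein, was at 14.8, 14.7 and 11.7 CPM against 73.8, 66.7 and 63.7 CPM, a log2 fold change of -2.31 ± 0.15 with an edgeR adjusted p of 2.69e-07. B2m, the light chain of MHC class I, was among the 4 most abundant genes with at least a 2-fold fall, at 746, 622 and 782 CPM against 1849, 1372 and 1455 CPM, a log2 fold change of -1.12 ± 0.11 with an edgeR adjusted p of 1.99e-05. The groups of all these genes were apart.

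Promoters of this group are shown for the called members with the largest fall whose window holds the core of the interferon-stimulated response element, TTTC, any 2 bases and TTTC on either strand (in capitals). It was at -59 in Gbp2, and at -45 and -39, overlapping, in Gbp3. This motif was chosen after the values were seen. It occurred in 288 of 10792 windows (2.67%), and in 11 of the 18 windows found for the 24 called interferon genes. Only 67.6% of tested genes had a window, under the 80% needed, so these shares are void as a comparison. The 250 bases before each start site, from RefSeq (GRCm38.p6), were chr3:142620413-142620662 and chr3:142559794-142560043, both on the plus strand:
Gbp2: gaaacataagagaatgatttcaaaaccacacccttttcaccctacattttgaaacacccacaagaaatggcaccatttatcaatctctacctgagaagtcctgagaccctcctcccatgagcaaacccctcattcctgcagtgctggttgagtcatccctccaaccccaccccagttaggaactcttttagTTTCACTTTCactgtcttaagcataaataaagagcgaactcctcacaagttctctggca
Gbp3: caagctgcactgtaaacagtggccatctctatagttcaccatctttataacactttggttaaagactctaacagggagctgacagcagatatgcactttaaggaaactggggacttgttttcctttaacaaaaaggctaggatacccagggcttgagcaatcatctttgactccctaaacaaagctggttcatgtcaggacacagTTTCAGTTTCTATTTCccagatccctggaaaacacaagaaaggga

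Chemokines, cytokines and acute phase genes were the next group. Of 21 tested members of the inflammation list, 14 were lower in KO day 1 and none higher, with a median of -1.85, and 12 of the 14 were at least 2-fold lower. The count was 15 of 22 without WT day 14 replicate 1 and 11 of 19 with the 6 libraries alone. That replicate lay at a median place of 0.88, with 2 of the 14 genes nearer to KO day 1. Saa3, an acute phase protein, had 18 counts summed over the 3 KO day 1 libraries and 863 over WT day 14, which is 0.111, 0.223 and 0.585 CPM against 17.8, 16.1 and 13.7 CPM, a log2 fold change of -5.61 ± 0.36 with an edgeR adjusted p of 2.69e-07. The neutrophil chemokines followed. Cxcl1 was at 22.3, 20 and 21.2 CPM in KO day 1 and 122, 171 and 136 CPM in WT day 14, a log2 fold change of -2.76 ± 0.16 with an edgeR adjusted p of 1.7e-07. Cxcl5 was at 19.3, 17.1 and 19.9 CPM against 87.4, 111 and 106 CPM, a log2 fold change of -2.43 ± 0.11 with an edgeR adjusted p of 1.26e-08. Both groups were tight and far apart for these chemokines.

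Ccl5, a T cell chemokine, was at 5.11, 7.45 and 5.85 CPM against 60.4, 52.6 and 58.5 CPM, a log2 fold change of -3.22 ± 0.18 with an edgeR adjusted p of 9.05e-08. The cytokine Il6 varied more within KO day 1, at 3.0, 1.95 and 6.58 CPM against 17.6, 24.1 and 20.6 CPM, a log2 fold change of -2.40 ± 0.33 with an edgeR adjusted p of 0.00053. C3, the central complement component, was at 11.6, 9.12 and 10.6 CPM against 29.7, 60.7 and 54.2 CPM, a log2 fold change of -2.20 ± 0.22 with an edgeR adjusted p of 2.48e-05. Replicate 1 was the lowest of WT day 14, above all KO day 1 libraries. Il1a, the cytokine interleukin 1 alpha, had few counts, 19 over KO day 1 and 92 over WT day 14, and its log2 fold change of -2.39 ± 0.58 (edgeR adjusted p = 0.0197) was lost under limma-voom and 5 other settings. Nfkbia, the inhibitor that NF-κB induces, was at -1.90 and Ccl2, a monocyte chemokine, at -1.85, both called lower. Of the 7 members not called, Lcn2 and Nos2 were at -3.39 and -2.01, and Cxcl12, Il11, Il1rn, Csf1 and Ccl11 ranged from -0.58 to 0.01.

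The κB element, taken as GGG, any 3 bases and TTCC (in capitals), was searched on both strands in the same way, also after the values were seen. It occurred in 555 of 10792 windows (5.14%), and in 5 of the 9 windows found for the 14 called inflammation genes. Of the motifs planned beforehand, the AP-1 element TGANTCA was in 532 of 10792 windows (4.93%). It was also in 5 of these 9, and in 6 of the 18 interferon windows. The NR4A element AAAGGTCA and the full cAMP element were in none of either. These shares are void as a comparison too. Ifnb1 held the κB element at -116, Cxcl1 at -89, -71 and -70 (the last pair overlapping), and Il6 at -44. The windows shown are those of Ifnb1 and of the called list members with the largest fall that hold the element. They were chr4:88522795-88523044 (minus strand), chr5:90890995-90891244 (plus) and chr5:30012864-30013113 (plus) in RefSeq (GRCm38.p6):
Ifnb1: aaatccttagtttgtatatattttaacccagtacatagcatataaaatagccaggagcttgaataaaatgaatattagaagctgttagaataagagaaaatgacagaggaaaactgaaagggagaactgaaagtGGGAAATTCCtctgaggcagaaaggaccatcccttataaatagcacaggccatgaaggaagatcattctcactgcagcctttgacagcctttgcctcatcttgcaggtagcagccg
Cxcl1: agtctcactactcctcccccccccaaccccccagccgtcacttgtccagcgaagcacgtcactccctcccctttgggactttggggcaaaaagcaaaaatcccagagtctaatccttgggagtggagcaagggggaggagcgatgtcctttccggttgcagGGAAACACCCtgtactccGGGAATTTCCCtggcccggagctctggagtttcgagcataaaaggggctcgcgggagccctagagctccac
Il6: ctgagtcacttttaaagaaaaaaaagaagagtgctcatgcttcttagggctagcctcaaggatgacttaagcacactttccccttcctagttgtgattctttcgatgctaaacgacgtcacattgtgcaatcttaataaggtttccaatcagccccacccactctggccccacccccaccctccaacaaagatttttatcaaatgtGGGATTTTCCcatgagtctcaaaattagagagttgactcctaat

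**Figure D2:**
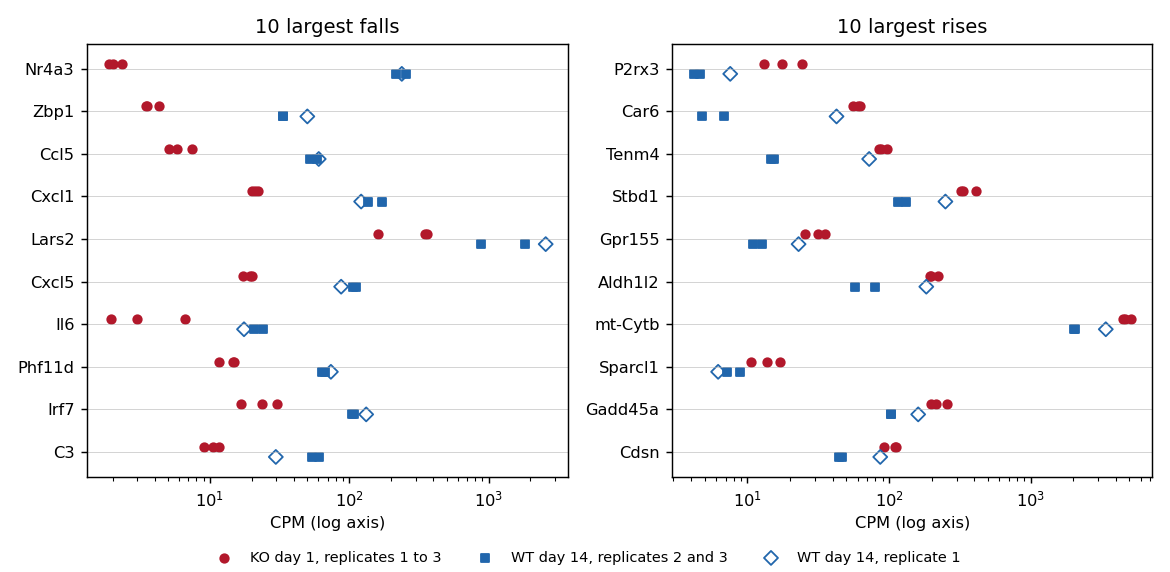
CPM on a log axis of the 10 largest falls and 10 largest rises by the naming rule, for KO day 1 (red circles), WT day 14 replicates 2 and 3 (blue squares) and WT day 14 replicate 1 (open diamonds). Replicate 1 lies nearer to WT day 14 in all 10 falls and nearer to KO day 1 in 8 of the 10 rises.

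The same genes had other levels in the remaining groups. KO day 14 against WT day 1, a comparison that shares no library with KO day 1 against WT day 14, called 8100 genes (50.7%) in the same fit. All 26 interferon genes were higher in KO day 14 than in WT day 1, with a median log2 fold change of 5.87. Irf7 means were 3.61 CPM in WT day 1, 23.6 in KO day 1, 115 in WT day 14 and 102 in KO day 14. Cxcl1 had its lowest level in KO day 1, with a mean of 21.1 CPM against 93.7 in WT day 1, and its highest in KO day 14 at 1631. Saa3 had the same order, with means of 0.306, 3.84, 15.9 and 421 CPM in KO day 1, WT day 1, WT day 14 and KO day 14. Of the 941 genes lower in KO day 1, 429 (45.6%) were higher and 222 (23.6%) lower in KO day 14 than in WT day 1. Of the 621 higher, 109 (17.6%) were higher and 263 (42.4%) lower. Over all genes tested these shares were 24.6% higher and 26.1% lower. In all 1023 genes were called in both comparisons, which is 65.5% of the 1562 and 12.6% of the 8100.

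**Figure D3:**
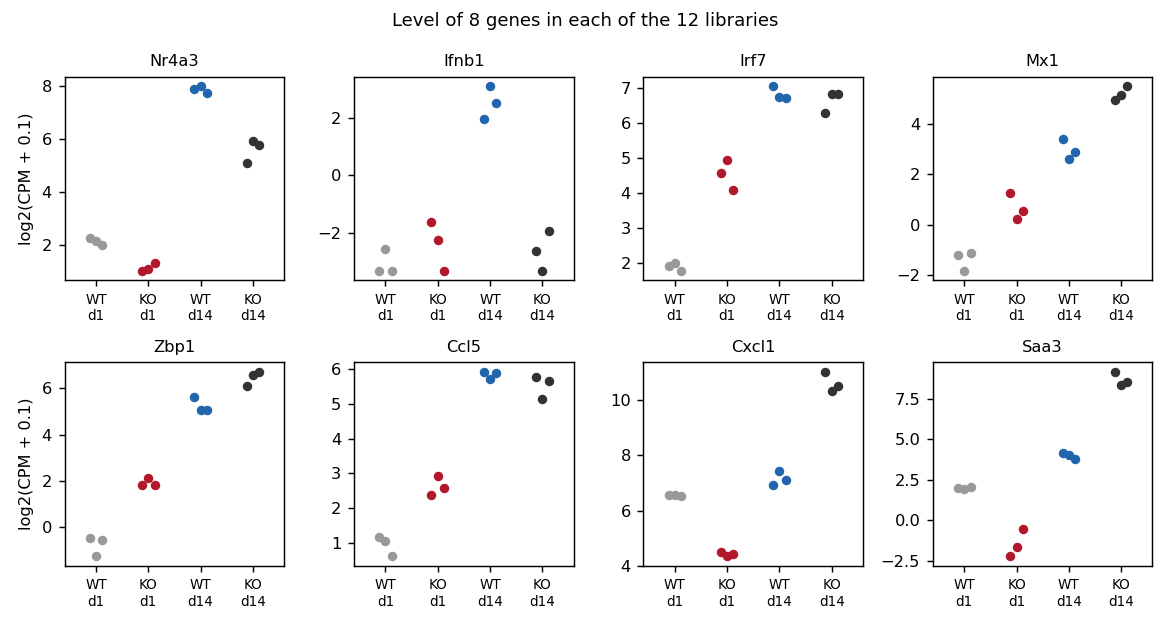
Levels of 8 genes in each of the 12 libraries as log2(CPM + 0.1), with the 3 libraries of a group side by side. WT day 14 is above KO day 1 in all 8 genes, and Ifnb1 is highest in WT day 14.

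Some immediate early genes beyond Nr4a3 were lower as well, by smaller amounts. Of 31 tested in the list, which holds Nr4a3 itself, 13 were lower and none higher, with a median of -0.49. Nr4a3 is among the 13. The 13 included Fos, Fosl1, Fosl2, Junb and Jun, which encode subunits of AP-1, while the AP-1 genes Fosb and Jund were at -0.90 and -0.14 and were not called. Fos was at 2.0, 2.23 and 1.41 CPM against 4.05, 4.4 and 4.7 CPM, a log2 fold change of -1.23 ± 0.23 with an edgeR adjusted p of 0.00533. Its groups did not overlap, and its call was lost with the 6 libraries alone (edgeR adjusted p = 0.0768). Junb was at -0.86 and Fosl1 at -0.87 on the log2 scale. Arc, Klf2 and Ier3 were at -0.93, -0.78 and -0.57, all called. Atf3, Klf4, Klf6, Per1, Dusp1, Myc and Egr3 ranged from -0.02 to 0.26 and were not called. With the 6 libraries alone 3 of the 31 were called, Nr4a3 among them. The counts of lower genes were 7, 7 and 8 without KO day 1 replicate 1, KO day 1 replicate 3 and WT day 14 replicate 3. Without WT day 14 replicate 1 there were 17 lower and 2 higher. Nr4a3 is in each of these counts of lower genes.

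Metabolic genes were lower in part, and the position of WT day 14 replicate 1 differed between the lists. In cholesterol synthesis, 9 of 24 genes were lower and none higher, with a median of -0.55, and all 24 estimates were negative. Over the 9 called genes that replicate lay at a median place of 0.13, nearer to KO day 1 in all 9. The count was 0 of 24 with the 6 libraries alone, 19 without replicate 1, 1 to 4 when any other of the 6 was left out, 4 under limma-voom and 15 with no filter.

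In fatty acid and lipid handling 9 of 23 were lower and none higher, with a median of -0.39. Over these 9 genes WT day 14 replicate 1 lay at a median place of 0.73, nearer to KO day 1 in 3. Fasn, fatty acid synthase, was at 100.1, 115 and 79 CPM against 143, 184 and 198 CPM, a log2 fold change of -0.83 ± 0.13 with an edgeR adjusted p of 0.0011. Its groups were apart. Acacb, an acetyl-CoA carboxylase, was at 1.17, 0.556 and 0.536 CPM against 1.9, 1.33 and 2.77 CPM, a log2 fold change of -1.43 ± 0.37 with an edgeR adjusted p of 0.0274. Cd36, a fatty acid receptor, had a larger estimate of -1.96 and was not called. The count was 2 of 22 with the 6 libraries alone, 4, 5 and 5 without KO day 1 replicate 3, WT day 14 replicate 2 and WT day 14 replicate 3, and 16 without WT day 14 replicate 1.

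In glycolysis 9 of 24 were lower and 1 higher, with a median of -0.33. Over the called genes WT day 14 replicate 1 lay at a median place of 0.67, nearer to KO day 1 in 4. Pfkl, the liver type phosphofructokinase, was at 62.6, 59 and 57.3 CPM against 88.3, 144 and 165 CPM, a log2 fold change of -1.15 ± 0.15 with an edgeR adjusted p of 0.000401. Aldoa, an aldolase, was at 538, 515 and 508 CPM against 627, 863 and 969 CPM, a log2 fold change of -0.66 ± 0.12 with an edgeR adjusted p of 0.00376. Ldha, which makes lactate, was at 451, 502 and 338 CPM against 687, 532 and 570.3 CPM, a log2 fold change of -0.47 ± 0.13 with an edgeR adjusted p of 0.0294. Pdk1, the kinase that restrains pyruvate dehydrogenase, was at 31, 29.6 and 28.9 CPM against 35.2, 68 and 70.6 CPM, a log2 fold change of -0.95 ± 0.19 with an edgeR adjusted p of 0.00695. Pdha1, a subunit of that dehydrogenase, was the member that was higher (0.29 ± 0.07, edgeR adjusted p = 0.0212). Groups did not overlap in these 5 genes. Pfkl was called under every alternative, whereas Aldoa and Pdk1 were lost with the 6 libraries alone (edgeR adjusted p = 0.0637 and 0.0759). Ldha and Pdha1 were lost in the same fit (edgeR adjusted p = 0.167 and 0.165) and also without KO day 1 replicate 1, KO day 1 replicate 3 or WT day 14 replicate 3, and Pdha1 without WT day 14 replicate 2. The list's count of lower genes was 1 of 23 with the 6 libraries alone, 5 without KO day 1 replicate 1, KO day 1 replicate 3 or WT day 14 replicate 3, and 16 (with 2 higher) without WT day 14 replicate 1.

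Matrix genes had a split within WT day 14 like that of cholesterol synthesis. Of 28 tested, 7 were lower and none higher, with a median of -0.31. Lox, which crosslinks collagen and elastin, was at 119, 96.3 and 131 CPM against 114, 253 and 279.9 CPM, a log2 fold change of -0.90 ± 0.22 with an edgeR adjusted p of 0.022. Replicate 1 of WT day 14 lay inside the range of KO day 1. Col15a1, a basement membrane collagen, was at 0.278, 0.779 and 0.487 CPM against 1.35, 2.58 and 2.03 CPM, a log2 fold change of -1.93 ± 0.52 with an edgeR adjusted p of 0.0306. Col1a1, the main fibrillar collagen, was at -0.73 (called) and Col3a1 at -0.31 (not called). The median place of replicate 1 over the 7 was 0.20, and 19 were lower without it. The count was 0 of 28 with the 6 libraries alone and 0 to 4 when any other of the 6 was left out. Of 23 proteases and inhibitors, 5 were lower (among them Timp1 at -0.52) and 3 higher (Mmp9, Mmp12 and Mmp3). None of these 8 was called with the 6 libraries alone, and 12 of 24 were lower and 5 higher without WT day 14 replicate 1.

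Genes higher in KO day 1 were fewer at large folds. P2rx3, an ATP-gated ion channel, was at 17.4, 13.1 and 24.2 CPM in KO day 1 and 7.55, 4.19 and 4.65 CPM in WT day 14, a log2 fold change of 1.73 ± 0.23 with an edgeR adjusted p of 0.000445. H2-M10.1, a non-classical MHC class I gene with close relatives between which reads may be split, was at 38.9, 33.8 and 55.5 CPM against 18.3, 14 and 18.9 CPM, a log2 fold change of 1.32 ± 0.19 with an edgeR adjusted p of 0.000759. Stbd1, a glycogen-binding protein, was at 321, 332 and 412 CPM against 250.3, 116 and 132 CPM, a log2 fold change of 1.09 ± 0.21 with an edgeR adjusted p of 0.00584. Gadd45a, a growth arrest and DNA damage gene, was at 198, 214 and 258 CPM against 161, 104 and 104 CPM, a log2 fold change of 0.86 ± 0.15 with an edgeR adjusted p of 0.00364. In these 4 genes no library of one group reached the other, and all but Stbd1 were called under every alternative (Stbd1 with the 6 libraries alone, edgeR adjusted p = 0.0676).

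Several rises rested on a difference inside WT day 14. Car6, a secreted carbonic anhydrase, was at 55.8, 62.2 and 60 CPM in KO day 1 and 42.6, 4.75 and 6.83 CPM in WT day 14, a log2 fold change of 1.69 ± 0.50 with an edgeR adjusted p of 0.0471. Tenm4, a teneurin, was at 88.2, 96.3 and 84.6 CPM against 72.4, 15.4 and 14.7 CPM, a log2 fold change of 1.38 ± 0.41 with an edgeR adjusted p of 0.0467. Aldh1l2, a mitochondrial enzyme of folate metabolism, was at 194, 196 and 223 CPM against 183, 57.4 and 80.2 CPM, a log2 fold change of 0.93 ± 0.28 with an edgeR adjusted p of 0.0478. In each, WT day 14 replicate 1 was close to the KO libraries and replicates 2 and 3 were far below. The 3 calls were lost with the 6 libraries alone and when any library other than WT day 14 replicate 1 was left out, and those of Tenm4 and Aldh1l2 also under DESeq2. Gpr155 and Cdsn were at 0.98 ± 0.22 and 0.82 ± 0.18, with WT day 14 replicate 1 at places of 0.30 and 0.22. Both were lost with the 6 libraries alone and without KO day 1 replicate 3, WT day 14 replicate 2 or WT day 14 replicate 3. Sparcl1 (0.89 ± 0.20) did not share this split, at 6.2, 7.19 and 8.91 CPM in WT day 14 replicates 1 to 3. Its call was lost with the 6 libraries alone and without KO day 1 replicate 3 or WT day 14 replicate 2.

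**Figure D4:**
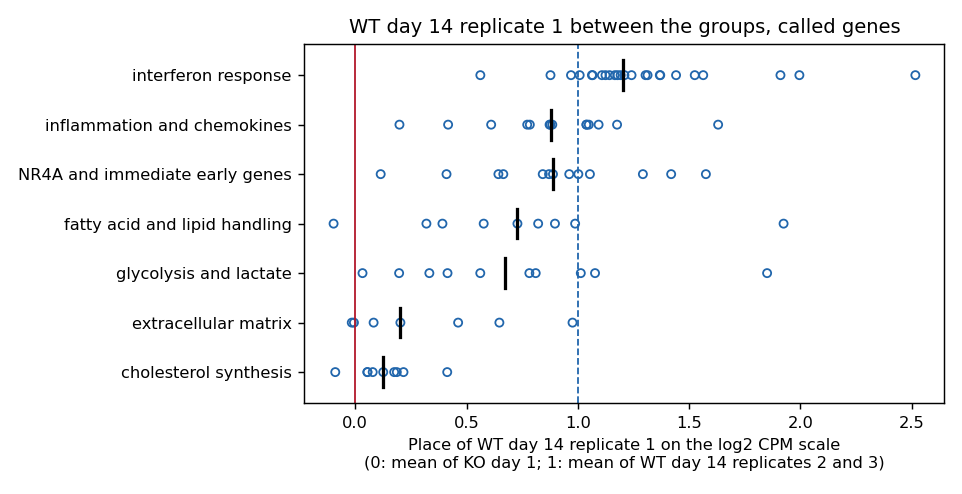
Place of WT day 14 replicate 1 for the called genes of 7 lists (open circles) with the median (black bar), where 0 is the mean of KO day 1 and 1 the mean of WT day 14 replicates 2 and 3 in log2 CPM. Interferon genes centre on 1.20 and cholesterol genes on 0.13.

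Of 14 tested mineralisation genes 2 were higher and 1 lower, where 3.89% of all genes tested were higher and 5.89% lower. Without WT day 14 replicate 1 there were 4 higher and 5 lower. Mgp, an inhibitor of vascular calcification, was at 3.61, 5.56 and 3.36 CPM in KO day 1 and 1.35, 1.12 and 0.99 CPM in WT day 14, a log2 fold change of 1.84 ± 0.23 with an edgeR adjusted p of 0.000244. It was called under every alternative. Levels in the other groups were higher, with means of 24.4 CPM (WT day 1) and 41 CPM (KO day 14). Fetub, a fetuin, was also higher (1.57 ± 0.26, edgeR adjusted p = 0.00199), and the phosphate transporter Slc20a2 was lower (-0.36 ± 0.09, edgeR adjusted p = 0.02). Both were lost with the 6 libraries alone. The other 11 were not called with all libraries.

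Among bone-related genes, 1 of 15 was called, Runx1 at -0.39, where 5.89% of all genes tested were lower. In this list 4 were lower without WT day 14 replicate 1 and 0 of 14 were called with the 6 libraries alone. Runx2, the master regulator of osteoblasts, was at 97.6, 86.3 and 101 CPM against 83.8, 123 and 144 CPM. Its log2 fold change was -0.30 (95% interval -0.60 to -0.0046, just below 0) and was not called (edgeR adjusted p = 0.181). Alpl, the phosphatase that frees phosphate for mineral, was at 10.9, 11.4 and 13.6 CPM against 8.2, 15.7 and 18.9 CPM, a difference of -0.25 (95% interval -0.78 to 0.28). Spp1, osteopontin, was at 573, 433 and 608 CPM against 446, 513 and 517 CPM, a difference of 0.13 (95% interval -0.10 to 0.36). Without WT day 14 replicate 1, Runx2 was called lower at -0.49 (edgeR adjusted p = 9.67e-05) and Alpl at -0.53 (edgeR adjusted p = 0.018), and both were also called lower with the 6 libraries alone and without that replicate, but under none of the other 14 alternatives. The intervals for Sox9, Msx2, Phospho1 and Tnfrsf11b held 0, as did those for Alpl and Spp1. Enpp1, which makes the mineral inhibitor pyrophosphate, was at 4.39, 3.39 and 4.29 CPM against 2.5, 8.73 and 11.4 CPM and was not called (edgeR adjusted p = 0.114), with replicate 1 below and replicates 2 and 3 above the KO day 1 range. Without replicate 1 it was called lower at -1.33 (edgeR adjusted p = 5.17e-07).

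Acta2, smooth muscle actin, was at 660.5, 638 and 704 CPM against 538, 722 and 727 CPM, a difference of 0.01 (95% interval -0.23 to 0.25). Of 17 contractile genes tested, Synpo2 was lower (-0.94) and Kcnmb1 higher, where 5.89% of all genes tested were lower and 3.89% higher. The list as a whole thus had few calls, near those shares. The counts were 1 higher and 9 lower without WT day 14 replicate 1 and 0 with the 6 libraries alone. Kcnmb1, the beta subunit of the large conductance potassium channel, was at 2.44, 2.89 and 2.88 CPM against 1.25, 0.419 and 0.644 CPM, a log2 fold change of 1.77 ± 0.29 with an edgeR adjusted p of 0.00171. The alpha subunit of that channel, Kcnma1, was at 4.66, 3.56 and 3.02 CPM against 2.25, 0.489 and 0.891 CPM, a log2 fold change of 1.58 ± 0.39 with an edgeR adjusted p of 0.0214. Both subunits, whose values had been seen when they were named, were lost with the 6 libraries alone. The label of smooth muscle was checked against its markers. Acta2, Smtn and Lmod1 were present in all 6 libraries, but Tagln had 11 counts over KO day 1 and 5 over WT day 14, Myh11 27 and 31, Cnn1 41 and 32, and Myocd 26 and 28. Of the 7 markers looked up, 4 were thus close to 0 in both groups. Myod1, a skeletal muscle marker, had 536 to 1130 counts in each of the 6 libraries.

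Clock genes were called in both directions, 4 lower and 2 higher of 19, and 5 and 5 without WT day 14 replicate 1. Arntl, the BMAL1 activator, was at 10.3, 12.3 and 8.97 CPM against 18.9, 19.8 and 19.8 CPM, a log2 fold change of -0.89 ± 0.13 with an edgeR adjusted p of 0.000946. Nfil3, a repressor of clock outputs, was at 10.7, 13.5 and 10.7 CPM against 19.9, 19.8 and 22.7 CPM, a log2 fold change of -0.84 ± 0.12 with an edgeR adjusted p of 0.00084. Per2, a repressor of the BMAL1 complex, went the other way, at 27.7, 24.5 and 29.8 CPM against 17.4, 17 and 16 CPM, a log2 fold change of 0.70 ± 0.10 with an edgeR adjusted p of 0.000734. Each of these 3 had groups apart and was called under every alternative. Nr1d1 and Bhlhe40 were at -0.57 and -0.54 (called lower) and Tef at 0.31 (called higher). The hour at which cells were collected is not given in the sources used here.

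Stress genes were mixed. Among genes of NRF2 and oxidative stress 6 of 21 were lower and 3 higher. Hmox1, heme oxygenase 1, was at 106, 99.9 and 119.5 CPM against 155, 175 and 163 CPM, a log2 fold change of -0.59 ± 0.09 with an edgeR adjusted p of 0.000989. Slc7a11, the cystine transporter, was lower by a like amount (-0.58 ± 0.10, edgeR adjusted p = 0.00243), and both were called under every alternative. Sod1, a superoxide dismutase, and Gpx1, a glutathione peroxidase, were higher (0.46 ± 0.09 and 0.40 ± 0.08, edgeR adjusted p = 0.00724 and 0.00677). Gclc, which makes the first step of glutathione synthesis, was at -0.60 ± 0.14 with overlapping groups. Hspa5, the chaperone BiP, was at 2029, 1909 and 2409 CPM against 1652, 1346 and 1377 CPM, a log2 fold change of 0.54 ± 0.10 with an edgeR adjusted p of 0.0041. Of 24 genes of endoplasmic reticulum stress, it and Manf (0.45 ± 0.11) were higher, while Calr (-0.34 ± 0.08) and Slc7a11 were lower. Of 16 heat shock genes 3 were lower, with Hsph1 at -0.43 ± 0.07 and Hspa1b at -0.61 ± 0.16, and Cryab was higher (0.33 ± 0.10). In the hypoxia list 3 of 19 were lower (Pdk1, Slc2a1 and Hif1a, the last at -0.44 ± 0.11). Without WT day 14 replicate 1 the counts were 6 higher and 8 lower for NRF2 and oxidative stress, 13 higher and 3 lower for endoplasmic reticulum stress, 6 and 6 for heat shock, and 2 higher and 10 lower for hypoxia. With the 6 libraries alone Hmox1 and Slc7a11 kept their calls and the other stress genes named here lost theirs.

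Growth and signalling genes are read against the 3.89% called higher and 5.89% called lower over all genes tested. Rgs4, a brake on G protein signalling, was at 0.722, 0.779 and 0.975 CPM against 1.75, 4.89 and 6.19 CPM, a log2 fold change of -2.35 ± 0.42 with an edgeR adjusted p of 0.00339. It was called under every alternative, and 2 more of its list of 20, Rgs3 (-0.77) and the lipid receptor S1pr1 (-1.10 ± 0.33, groups overlapping), were lower. The call for S1pr1 held in 7 of 16 alternatives and was lost under DESeq2, limma-voom and the 6 libraries alone, among others. In BMP and TGF-beta signalling 5 of 28 were lower and none higher, with Id3, a target of BMP signals, at -0.57 ± 0.14 and the receptor Tgfbr2 at -0.45. Bmpr1b, a BMP receptor, had 1 count over KO day 1 and 15 over WT day 14, a ratio of 15.6 with a 95% counting interval of 2.39 to 654. In the Wnt list 1 of 19 was called, Wnt5a at -0.75. Of 25 growth factors and their kinases 5 were lower, among them Pdgfb (-0.77 ± 0.22) and Fgfr2 (-0.55 ± 0.16), and Areg, a ligand of the EGF receptor, was higher (0.77 ± 0.22). The call for Pdgfb held in 8 of 16 alternatives and was lost under limma-voom and with the 6 libraries alone, among others. With all libraries none of 14 Notch genes was called by edgeR or limma-voom, while 6 had an unadjusted p below 0.05, 2 were lower by DESeq2 and 4 were lower by edgeR without WT day 14 replicate 1. Of 32 cell cycle genes, Ccnd1 and Ccnd2, the D-type cyclins, were higher (0.38 and 0.47) and none was lower. In the p53 list of 19, Ccng1 was higher (0.32) and Trp53 lower (-0.44). Without WT day 14 replicate 1, edgeR called 8 of 20 G protein genes lower and none higher, 11 of 28 BMP and TGF-beta genes lower and 1 higher, 7 of 19 Wnt genes lower and 1 higher, and 12 of 25 growth factors and kinases lower and 2 higher. The same fit called 15 of 32 cell cycle genes higher and 1 lower, and 5 of 19 p53 genes higher and 7 lower. Over all 16434 genes tested in that fit, 2810 were higher and 2728 lower, so its list counts are read against these. With the 6 libraries alone, 1 G protein gene was called (lower) and none of the BMP and TGF-beta, Wnt, growth factor, Notch, cell cycle or p53 lists. That fit called 205 of all 15025 genes tested (19 higher, 186 lower), so its list counts are read against these.

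Of 23 targets of YAP and TEAD, the transcription factors at the end of the Hippo pathway, 5 were lower and none higher. Amotl2, a negative regulator of YAP, was at 241, 260.2 and 265 CPM against 265, 500.4 and 478 CPM, a log2 fold change of -0.70 ± 0.17 with an edgeR adjusted p of 0.0183. Gadd45b was at -0.77 ± 0.19 and Ankrd1 at -0.55. Over the 5 genes WT day 14 replicate 1 lay at a median place of 0.32, nearer to KO day 1 in 4, and 18 of 23 were lower without it, against 0 of 23 with the 6 libraries alone. Yap1 itself was at 3812, 4032 and 3551 CPM against 4137, 4716 and 4642 CPM, -0.24 on the log2 scale and not called (edgeR adjusted p = 0.0558). Birc2, an inhibitor of apoptosis, was at 1654, 1404 and 1872 CPM against 1343, 1667 and 1660.0 CPM and was not called (edgeR adjusted p = 0.664). Means in the groups outside this pair were far lower, 967 and 622 CPM for Yap1 and 396 and 185 CPM for Birc2 in WT day 1 and KO day 14.

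**Figure D5:**
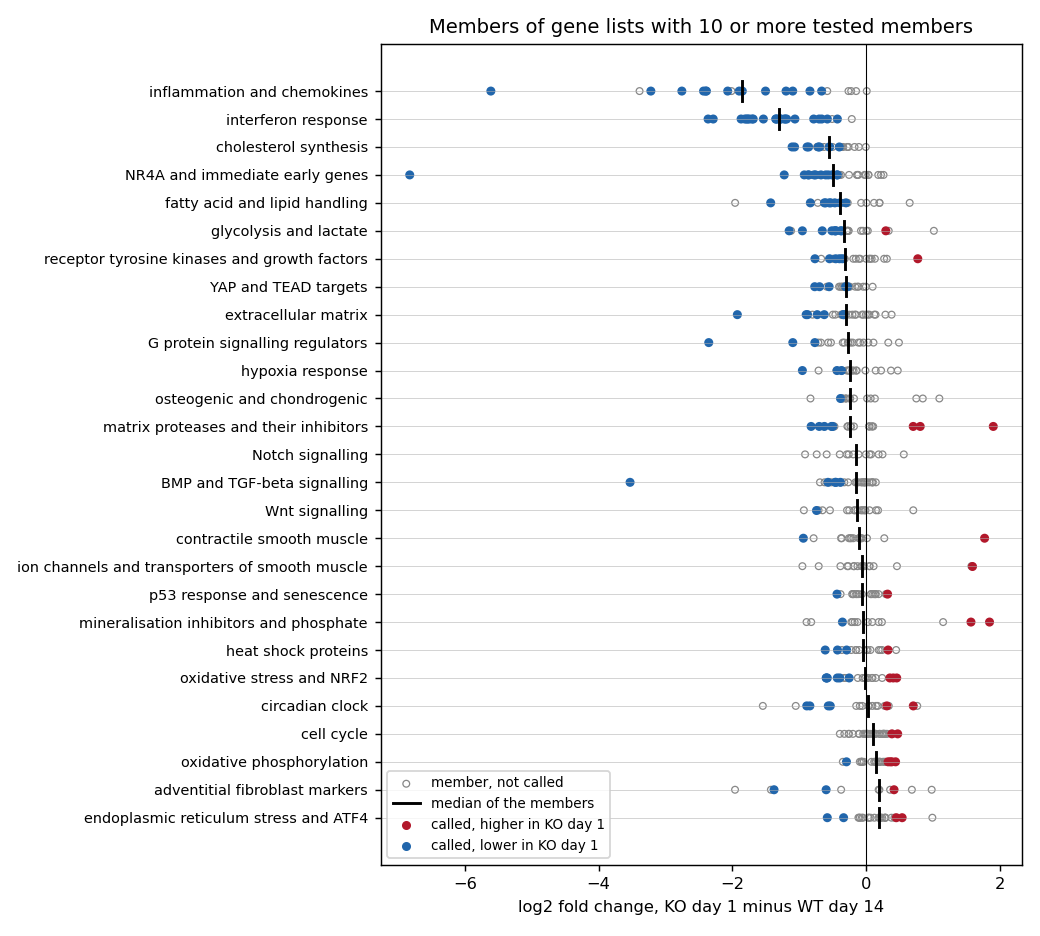
Log2 fold change of KO day 1 minus WT day 14 for each tested member of the lists with 10 or more tested members, sorted by the list's median (black bar). Called members are filled, blue for lower and red for higher in KO day 1, and the inflammation and interferon lists lie furthest to the left with medians of -1.85 and -1.30.

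RNA composition differed between the groups alongside these results. A set of ribosomal RNA-like names, chosen after values were seen (CT010467.1, Gm26917, Gm42418, AY036118, Gm23935, Gm24270 and Lars2), took 0.126% to 0.304% of counts in KO day 1 and 0.754% to 1.83% in WT day 14. Lars2, the mitochondrial leucyl-tRNA synthetase, was at 360.2, 349.8 and 161 CPM against 2572, 1837 and 876 CPM, a log2 fold change of -2.60 ± 0.34 with an edgeR adjusted p of 0.000333. CT010467.1, annotated as ribosomal RNA in GENCODE, was at 1463, 1377 and 589 CPM against 7451, 5068 and 2701 CPM, a log2 fold change of -2.15 ± 0.34 with an edgeR adjusted p of 0.00152. Mitochondrial counts were 3.66% to 4.70% in KO day 1 and 3.26% to 3.42% in WT day 14. Of 13 mitochondrial messenger RNAs, 9 were higher in KO day 1 (by 0.43 to 0.93 on the log2 scale) and none lower. mt-Cytb, cytochrome b, was at 4612, 4493 and 5092 CPM against 3400.0, 2030.0 and 2044 CPM, a log2 fold change of 0.93 ± 0.15 with an edgeR adjusted p of 0.00163. mt-Nd4, a subunit of complex I, was at 0.53 ± 0.09 (edgeR adjusted p = 0.00206). Nuclear genes of oxidative phosphorylation gave 4 higher and 1 lower of 24, against 14 higher and 1 lower without WT day 14 replicate 1 and 0 with the 6 libraries alone. Without mitochondrial and ribosomal RNA-like names 1552 genes were called (624 higher, 928 lower), and all 81 named genes called and still tested stayed called. The part of RNA composition in single differences was not tested beyond that.

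Markers of other cell types were summed per library, and their calls are read against 3.89% higher and 5.89% lower over all genes tested. The fibroblast list, mostly Ly6a and Gsn, summed to 525 to 632 CPM in KO day 1 and 764 to 1196 CPM in WT day 14, without overlap. Its members did not shift as a set. Of 11 tested, 1 was higher and 2 lower, and the median log2 fold change was 0.19, with 5 estimates negative. Gsn, the actin-severing protein gelsolin, was at 278, 274 and 270.2 CPM against 256, 488 and 502 CPM, -0.60 on the log2 scale and called lower, with overlapping groups. Ly6a, a surface protein, was at 194, 164 and 250.1 CPM against 429, 559.8 and 593 CPM, a log2 fold change of -1.38 ± 0.14 with an edgeR adjusted p of 2.21e-05. The endothelial list summed to 5.26 to 6.94 CPM against 10.3 to 11.2 CPM, also without overlap and with 2 of 5 lower (Flt1 at -2.60 and Cdh5 at -0.70). Sums were apart too for the skeletal and cardiac muscle list, at 211.5 to 244.4 CPM against 264.6 to 286.7 CPM. The Schwann and neural list was at 15.94 to 20.08 CPM against 20.59 to 24.22 CPM, just without overlap. Sums of the adipocyte, pericyte and mesothelial lists overlapped. The macrophage and leukocyte list summed to 61.0 to 73.4 CPM against 64.9 to 96.3 CPM, mostly Cd68, with Cd14 lower (-0.51). The leukocyte genes Ptprc and Adgre1 had 26 and 11 counts over KO day 1 and 2 and 0 over WT day 14. Of these, 20 and 8 fell in KO day 1 replicate 2 alone. Epcam and Upk3b were at 0 in all 6 libraries, whereas Msln, a mesothelial marker, had 5122 to 7905 counts per library. Adipocyte, pericyte, Schwann and mesothelial lists had 4, 6, 5 and 5 tested members and no call by edgeR, with 2, 6, 1 and 3 at an unadjusted p below 0.05, 1, 0, 1 and 1 called by DESeq2 and 1, 0, 0 and 0 by limma-voom. Without WT day 14 replicate 1, edgeR called 3 of 5 adipocyte markers lower, 4 of 6 pericyte markers lower and 1 higher, 1 of 6 Schwann markers lower and 1 higher, 3 of 5 mesothelial markers lower, 3 of 4 macrophage and leukocyte markers lower, and 3 of 7 muscle markers lower. Of the 7 skeletal and cardiac muscle markers with all libraries, Myod1 was lower (-0.63), with 1907 counts over KO day 1 and 2769 over WT day 14. Myog and Myh3 of that list had few counts, 27 and 34 over KO day 1 and 14 and 24 over WT day 14. In RNA of whole cultures, fewer cells of a type and less RNA per cell cannot be told apart, and the part of cell mixture in the differences above was not tested.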

How the data were processed

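The 12 libraries fall into 4 groups of 3 by genotype and day, and KO day 1 was compared with WT day 14. The authors deposited raw read counts per gene name, 1 table per day, per the file headers. The build is mm9 per the submitters' processing notes. The sources used here give no aligner, counting tool, annotation or strand setting, so overlapping or near-identical genes are uncertain. Names in both tables (26728) were kept after removing 43 and 53 repeated lines and 2 names with conflicting counts. All 12 libraries entered 1 edgeR 4.0.16 quasi-likelihood fit (R 4.3.3, filterByExpr, TMM, 1 mean per group, Benjamini-Hochberg, called at an adjusted p below 0.05), tested on simulated data. CPM are counts relative to the TMM-scaled total, and errors of folds are SE.

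Genes named are 22 followed genes, the 10 largest rises and falls among called, abundant genes without overlap between groups, up to 2 called members per direction of lists with 3 or more calls, the 4 most abundant 2-fold calls per direction, and genes said to be chosen after their values were seen. Names with a dot or of predicted genes were passed over among rises and falls. The comparison, members and lists were chosen with earlier results of these data known. Alternatives were DESeq2 1.42.0, limma-voom (limma 3.58.1), other size factors and filters, the 6 libraries alone, the replicate number as a block, and leaving out each library. Same-numbered libraries of the groups did not deviate together (r of -0.08, -0.20 and 0.21), so the numbers were not used as pairs. Promoter windows matched 10792 of the 15973 tested genes by symbol. The 2 names with conflicting counts and names in 1 table only were left out of tests. A few named genes are not reported here but were kept in every fit and count.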

Additional observations from a re-analysis of the deposited data

Results flagged for a closer look

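Names that only the day 14 table lists were outside the comparison, and 4 of them had counts in WT day 14 while KO day 14, in the same table, had 0. Myl2, a myosin light chain of heart muscle, had 221 counts over WT day 14, as 216, 3 and 2 in replicates 1 to 3. Mybpc3, a heart myosin-binding protein, had 55, as 49, 3 and 3. Ifna4, an interferon alpha gene with close relatives, had 51, as 12, 17 and 22, so all 3 replicates held it. Gpr65, a proton-sensing receptor, had 27, as 7, 18 and 2. No library of KO day 1 could be set beside these, since the day 1 table holds no line for these names and also holds no name with 0 counts in all its libraries.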

How the results depend on the processing

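Nr4a3 kept its direction and call under all 16 alternatives, between -6.93 and -6.77 on the log2 scale. No named gene with a call changed direction under these alternatives. The 1562 calls (621 higher, 941 lower) were 205 (19 and 186) with the spread estimated from the 6 libraries alone, and 3788 (1826 and 1962) with the 6 libraries alone and without WT day 14 replicate 1, an alternative chosen after seeing the data. Leaving out 1 library in turn gave 576 to 5538 calls, 148 to 2810 higher and 428 to 2728 lower, with the highest of each without WT day 14 replicate 1. Each such fit has 1 group of 2 libraries, and the cause of the wide range was not tested. DESeq2 gave 2242 calls, limma-voom 1566, no filter 1623. Of named genes called, 34 of 86 stayed called with the 6 libraries alone and 87 of 87 without WT day 14 replicate 1. The replicate number as a block, though the numbers do not pair the libraries, gave 1492 calls (598 higher, 894 lower).

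Low counts limit genes such as Tagln, Myh11 and Il1a, where differences were not detectable at this depth or rest on few counts. Groups of 3 without stated separate cultures, 1 divergent library, and the tie of genotype, day, treatment label and table limit all comparisons.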

Other observations

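On the X chromosome 44 of 332 abundant genes (13.3%) were higher in KO day 1, with a median log2 fold change of 0.09, the highest of the chromosomes. The share of higher genes on the other chromosomes was 3.17% to 7.96%. Xist, an X-linked RNA, was called higher (0.35 ± 0.09, edgeR adjusted p = 0.0234), and its call was lost with the 6 libraries alone. Ribosomal RNA-like names took 0.038% to 0.063% of counts in WT day 1 and KO day 14, below their share in both groups compared here.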
